A study of Xenopus laevis with 3 samples.

Results

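The transcripts described here come from genes known for their work in the egg rather than in sperm. They are figla, the gene of a transcription factor of the germ line, and genes of the egg coat, named zp2, zp3, zp4 and zpd. Members were chosen by symbol: rows named figla, zp2, zp3, zp4, zpd or nobox, with or without the ending .L or .S, which marks the copy of a gene on the long or the short chromosome of a pair. Of these 6 symbols, 4 matched a row, and they gave 5 of the 34694 rows of the deposited table: figla.L, zp4.L, zp4.S, zpd.L and zp2.L. No row carried the symbol zp3 or nobox, so these genes were not analysed here. The 12269 rows (35.4%) that carry only a locus identifier were not searched for them or for further copies of the others.

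The material was whole testis, labelled as mixed in cell type, from untreated outcross males of the African clawed frog Xenopus laevis. Poly-A RNA was sequenced in 3 libraries with 3 processing dates, which form 1 group, so that every comparison lies between genes of the same libraries. Nothing in the labels states the animals' age or whether each library is a separate animal, and p-values therefore measure the spread between these libraries, which may be technical. Library, animal and date cannot be told apart. Totals were 70580016, 68378714 and 61212304 counts in replicates 1, 2 and 3.

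FIGLA is a basic helix-loop-helix factor. In the mouse it pairs with the product of Tcf3 on E-box sequences before the zona pellucida genes and is needed for the first follicles to form. The egg coat, called the vitelline envelope in frogs, is a mesh of glycoproteins that share a zona pellucida (ZP) domain, and growing oocytes secrete it. In the mouse, ZP2 takes part in sperm binding and is cleaved after fertilisation.

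The gene figla was by far the most abundant of the members in these testes. The copy figla.L, with a coding length of 723 bases, had 4404, 6013 and 3745 counts in replicates 1, 2 and 3. Its TPM, an abundance scaled to coding length and to the library, was 92.7, 128 and 88.3, with a mean of 103 ± 21.9 (SD, n = 3). The replicate 2 library was the highest, while the other libraries lay close together. By mean TPM, 1635 detected rows stood higher and 92.9% of the detected rows stood lower, where detected means at least 0.5 CPM (counts scaled to the size of the library, with TMM factors) and over 3 counts in all 3 libraries.

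The egg coat genes covered a wide range below figla. The copy zp4.L, which encodes the coat glycoprotein also known as ZPB, had 1722, 1394 and 1213 counts and 16.1, 13.2 and 12.7 TPM in replicates 1, 2 and 3. Its mean was 13.97 ± 1.82 TPM (SD, n = 3), above 58.9% of the detected rows. The copy zpd.L, for a further ZP-domain protein of the envelope, had 628, 1254 and 428 counts and 8.45, 17.1 and 6.45 TPM. Its mean was 10.7 ± 5.66 TPM (SD, n = 3), above 52.4% of the detected rows. The median of all detected rows was 9.72 TPM, so that zp4.L and zpd.L stood near the middle of what this tissue expresses.

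The remaining rows were close to the lower end. The copy zp2.L, also known as ZPA, had 130, 93 and 81 counts, with exact Poisson 95% intervals of 108.6 to 154, 75.1 to 114 and 64.3 to 101 counts. It amounted to 0.942, 0.683 and 0.66 TPM, with a mean of 0.761 ± 0.157 (SD, n = 3), above 4.79% of the detected rows. The copy zp4.S had 33, 29 and 14 counts, with intervals of 22.7 to 46.3, 19.4 to 41.6 and 7.65 to 23.5 counts, and 0.307, 0.273 and 0.15 TPM. These intervals cover counting error only. With 0.438, 0.443 and 0.234 CPM, zp4.S was the only member row below the detection threshold, so 4 of 5 member rows were detected (80%), against 66.7% of all rows and 81.6% of rows that carry a gene name.

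**Figure D1:**
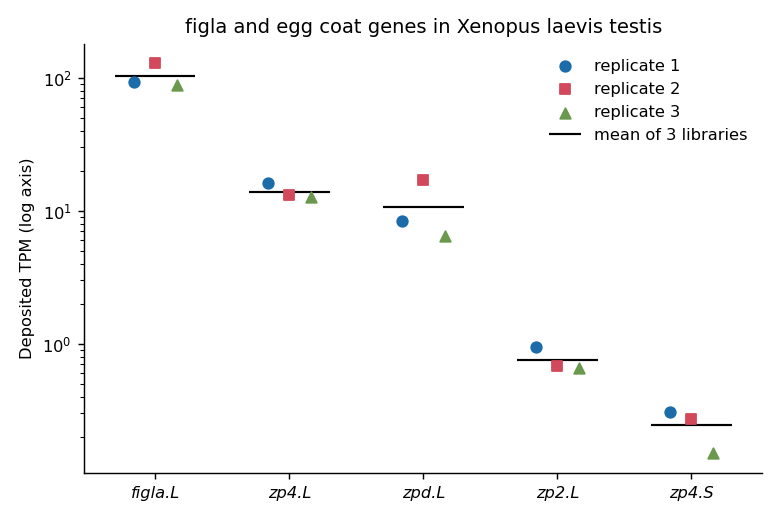
Deposited TPM of the 5 member rows (log axis), with a point for each of the 3 libraries and a line at their mean. All 3 libraries of figla.L lie above 88, zp4.L and zpd.L overlap, and zp2.L and zp4.S stay below 1 TPM.

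**Figure D2:**
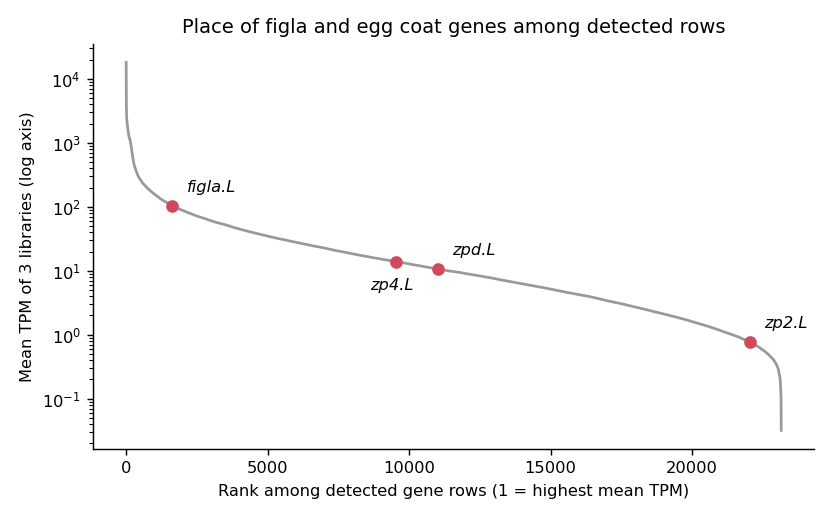
Mean TPM of every detected row (log axis) against its rank, with the 4 detected member rows marked. figla.L lies in the upper part of the curve, zp4.L and zpd.L near its middle and zp2.L close to its end.

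The order of the levels was tested by ratios of TPM within each library. Between figla.L and zp4.L the log2 ratios were 2.53, 3.28 and 2.80 in replicates 1, 2 and 3, a mean of 2.87 ± 0.38 (SD, n = 3) or 7.32-fold. Over zpd.L, the log2 ratio of figla.L was 3.38 ± 0.44, or 10.4-fold. Over zp2.L it was higher by 7.08 ± 0.47, or 135-fold. In each of these 3 ratios figla.L was higher in 3 of 3 libraries and the ranges of the libraries did not overlap. The size of the ratios depended on the scaling to coding length, which is short for figla.L. Without that scaling, the mean log2 ratio of figla.L was 1.70 over zp4.L, 2.73 over zpd.L and 5.54 over zp2.L.

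The coat genes zp4.L and zpd.L did not keep an order in TPM. Their log2 ratio was 0.93 and 0.98 in replicates 1 and 3 and -0.38 in replicate 2, with a mean of 0.51 ± 0.77 (SD, n = 3). By TPM, zpd.L was thus above zp4.L in replicate 2. Without scaling to coding length, zp4.L led in each library, with a mean log2 ratio of 1.04. Against zp2.L, zp4.L led with a log2 ratio of 4.21 ± 0.10, or 18.5-fold, the smallest SD of the 10 ratios computed. With 81 to 130 counts of zp2.L, counting error alone can give a spread of this size, so no tight relation is shown. The row zpd.L was higher than zp2.L by 3.70 ± 0.82, or 12.995-fold, and zp2.L was higher than zp4.S by 1.69 ± 0.41, or 3.23-fold (SD, n = 3). Over all 10 pairs of member rows, flipping the signs of the libraries in an exact two-sided permutation test yielded p = 0.25 for 9 pairs, the smallest value 3 libraries allow, and p = 0.5 for zp4.L against zpd.L; with Benjamini-Hochberg adjustment over the 10 pairs these became 0.278 and 0.5. No pair could therefore pass 0.05.

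Together the 4 zp rows summed to 25.7, 31.2 and 19.9 TPM in replicates 1, 2 and 3. The row zp4.L held 62.3%, 42.2% and 63.6% of that sum and zpd.L 32.8%, 54.8% and 32.3%, while zp2.L held 3.66%, 2.19% and 3.31%. By TPM, replicate 2 differed from the other libraries in whether zp4.L or zpd.L led, which was not so in counts.

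Of the members, zp4 alone had both an L and an S row, and its transcripts came almost entirely from L. The S copy held 33 of 1755 zp4 counts in replicate 1 (1.88%, exact Clopper-Pearson 95% interval 1.30 to 2.63%). It held 29 of 1423 in replicate 2 (2.04%, 1.37 to 2.91%) and 14 of 1227 in replicate 3 (1.14%, 0.626 to 1.91%). In a fit of L against S over all 6627 pairs with enough counts, the log2 ratio of zp4 was 5.88 (SE 0.292, adjusted p = 0.000383 by the quasi-likelihood F-test of edgeR with Benjamini-Hochberg correction), or 58.8-fold, with L higher in 3 of 3 libraries. Of the pairs tested, 61.1% were called in either direction and 34.4% with L higher, so a call as such is common. Counting zp4 itself, 77 pairs (1.16%) had a fitted ratio at least as wide in favour of L, and 115 (1.74%) in either direction. A pair entered the fit on the summed CPM of its copies, so zp4.S, below the detection threshold, was tested beside zp4.L. The handling of reads that match both copies is not given in the sources used here, which leaves the small S counts uncertain.

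**Figure D3:**
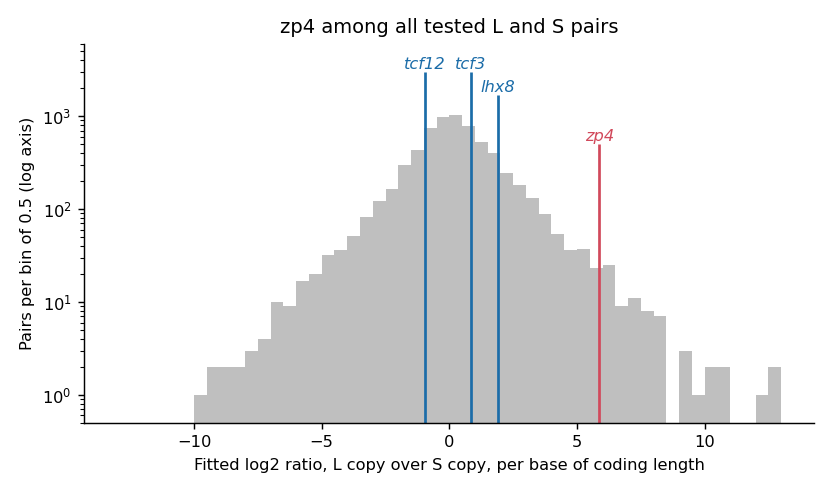
Histogram of the fitted log2 ratio of the L copy over the S copy for all 6627 tested pairs, with a log count axis and bins of 0.5. The zp4 pair lies at 5.88, in the right tail, while tcf12, tcf3 and lhx8 lie nearer the centre at -0.96, 0.85 and 1.90.

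The members differed in how much they varied between libraries. In CPM, figla.L had 58.4, 91.9 and 62.5 in replicates 1, 2 and 3, a highest over lowest ratio of 1.57 (counting interval 1.51 to 1.64). The same ratio was 2.68 for zpd.L (2.403 to 3.002), with 8.33, 19.2 and 7.15 CPM. The row zp4.L, with 22.8, 21.3 and 20.3 CPM, varied by only 1.13-fold (1.05 to 1.21). For zp2.L, with 1.72, 1.42 and 1.35 CPM, the ratio was 1.27 (0.959 to 1.70), an interval that includes equal levels. These counting intervals take the highest and lowest library as fixed, although they were picked by their values.

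Set against detected rows within 2-fold of the same mean CPM, zpd.L varied more than 91.4% of 7631 rows and figla.L more than 72.4% of 5067. The row zp4.L varied more than only 9.84% of 7808 such rows and zp2.L more than 10.1% of 3850. Without replicate 2 the highest over lowest ratio fell to 1.07 for figla.L and 1.17 for zpd.L, so the replicate 2 library carried the spread of both. It was the highest library for 35.8% of all detected rows.

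**Figure D4:**
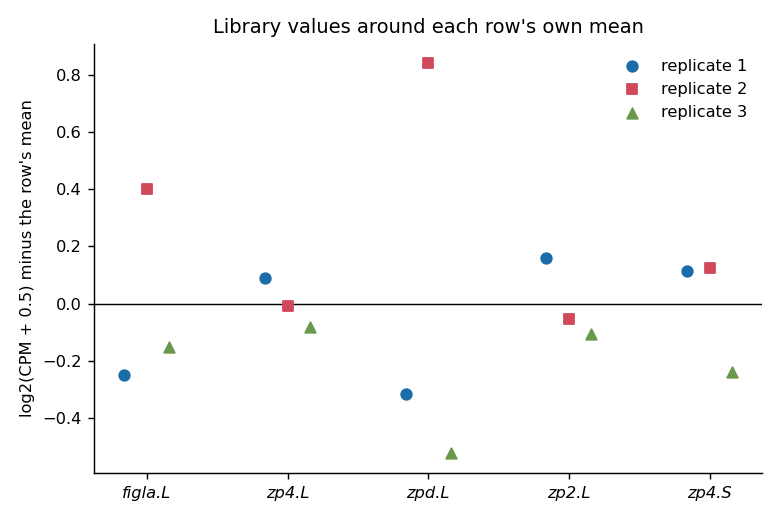
log2(CPM + 0.5) of each member row in each library, minus that row's own mean, with a point per library. Replicate 2 stands 0.40 above the mean for figla.L and 0.84 above it for zpd.L, while the points of zp4.L and zp2.L stay within 0.16 of their means.

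The list rows nearest in pattern to figla.L came from the lists of meiosis and spermatid genes. Likeness was the root mean square difference of log2(CPM + 0.5), centred on each gene's mean over the 3 libraries, and it was computed against 123 detected rows of the gene lists. Nearest to figla.L was spo11.L, for the enzyme that makes meiotic DNA breaks, at a difference of 0.0034, with 27.6, 43.9 and 29.7 CPM in replicates 1, 2 and 3. Next came tekt1.L, for a tektin of the sperm tail, at 0.020, and ccna1.S, a cyclin of meiosis, at 0.052. The S copy was the lower of the ccna1 pair, with a log2 ratio of L over S of 3.02 (adjusted p = 0.000465, edgeR, SE 0.172). The higher copy, ccna1.L, was not among these nearest rows. Among all 23153 detected rows, 342 others (1.48%) lay at least as near to figla.L as ccna1.S, so 3 libraries leave many rows alike. Some list rows are always nearest, and whether genes of the meiosis and spermatid lists lay nearer than other rows was not tested.

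The nearest rows to zp4.L were the meiotic cohesin gene smc1b.L at 0.047, the Piwi gene piwil2.L at 0.058 and the germ cell helicase gene ddx4.L at 0.068. Of these, only smc1b.L was highest in replicate 2, at 346 CPM against 342 and 319 CPM in replicates 1 and 3. For zp2.L they were the helix-loop-helix gene tcf12.L at 0.027, ddx4.L at 0.030 and piwil2.L at 0.067. For zpd.L the nearest were less close: dppa2.L, a gene of early embryos and germ cells, at 0.191, the TBP-like factor gene tbpl1.L at 0.300 and tekt4.S at 0.308. Of all detected rows, 1560 (6.74%) lay at least as near to zp4.L as ddx4.L did. For zp2.L, 1293 (5.58%) lay as near as piwil2.L, and for zpd.L, 1101 (4.76%) as near as tekt4.S. Likeness to the named genes beyond these shares was not tested.

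The cell type lists moved as well, and their part in the pattern of figla.L and zpd.L was not tested. Of 15 spermatid rows, all 15 were detected and 9 were highest in replicate 2, with summed levels of 2515, 3284 and 2894 TPM in replicates 1, 2 and 3. Meiosis genes were detected in 13 of 14 rows, with 8 highest in replicate 2 and sums of 1069, 1251 and 1105 TPM. The spermatogonial list, which also holds general germ cell genes such as ddx4, was detected in 12 of 17 rows. Of these, 10 were highest in replicate 1 and 2 in replicate 2, with sums of 2345, 2032 and 1769 TPM. The row dnd1.L, at 307, 118 and 107 TPM, is part of these sums and of the oocyte list too. Sertoli genes were detected in 10 of 12 rows, none highest in replicate 2, with sums of 716, 548 and 816 TPM. Leydig genes were detected in 6 of 6 rows, all highest in replicate 3, with sums of 474, 796 and 1454 TPM. For comparison, 81.6% of rows that carry a gene name were detected. Of all detected rows, 35.6%, 35.8% and 28.6% were highest in replicates 1, 2 and 3. In whole tissue, fewer cells of a type and less RNA per cell cannot be told apart.

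By level, figla.L stood between the steroid enzyme gene hsd3b1.L at 108 ± 88.2 TPM and smc1b.L at 96.4 ± 9.11 TPM among the listed rows (SD, n = 3). The row zp4.L stood between cyp11a1.S, the first enzyme of steroid synthesis, at 14.6 ± 10.3 TPM and the Sertoli and Leydig cell factor gene gata4.L at 13.2 ± 3.56 TPM. The row zpd.L stood between wt1.L at 10.7 ± 2.79 and tcf4.L at 10.4 ± 3.24 TPM, and zp2.L between lhcgr.S at 0.796 ± 0.207 and cuzd1.L at 0.679 ± 0.0167 TPM. In each of these 8 cases the library values of the neighbours overlapped.

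Other genes of the egg coat and of the oocyte were measured for comparison. Several were low, while others of the same lists, given further below, were higher. The growth factor genes of the oocyte gave 63, 37 and 28 counts for gdf9.L, 2, 4 and 5 for gdf9.S and 43, 21 and 12 for bmp15.L in replicates 1, 2 and 3. At 0.755, 0.449 and 0.38 TPM, gdf9.L lay below zp2.L in each library. The Balbiani body gene velo1.L had 80, 25 and 26 counts, the 5S RNA storage gene 42sp43.L had 30, 18 and 14, and gdf1.S, the localised growth factor Vg1, had 8, 5 and 4. None of these rows was detected, and all of them had counts in every library. The row gdf9.L, with 0.835, 0.566 and 0.467 CPM, missed the threshold of 0.5 CPM in replicate 3 only. The rows velo1.L and bmp15.L reached it in replicate 1 only, at 1.06 and 0.570 CPM. Rows with 0 counts in at least 1 library were zar1l.L (0, 0 and 2), zar1l.S (0, 6 and 3) and h1-8.L (18, 14 and 0).

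The oocyte linker histone copy h1-8.S had 20, 515 and 34 counts, or 0.384, 10.02 and 0.73 TPM, and like zpd.L it was highest in replicate 2. With 0.265 CPM in replicate 1, h1-8.S was not detected, and its high level rests on the replicate 2 library. The ovastacin gene astl.L, whose mouse product cleaves ZP2, had 321, 605 and 50 counts, or 1.46, 2.78 and 0.25 TPM, again highest in replicate 2. Also highest there was dppa2.L, with 68, 144 and 57 counts. In CPM, 6 of the 20 detected oocyte rows were highest in replicate 2, 8 in replicate 1 and 6 in replicate 3. Of all detected rows, the shares were 35.8%, 35.6% and 28.6% in the same order. The rows gdf9.L, bmp15.L and velo1.L, which were not detected, had their most counts in replicate 1. The part of any of these in the pattern of zpd.L was not tested.

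The maternal gene zar1.L was detected at 5.72 ± 0.492 TPM, the T-box gene vegt.L at 7.45 ± 1.42, tbpl2.L, an oocyte relative of the TATA-binding protein, at 11.7 ± 3.93, and the meiotic kinase gene mos.L at 1.71 ± 0.661 (SD, n = 3). The vegetal cortex gene trim36.S reached 18.6 ± 5.16 TPM and trim36.L 3.69 ± 1.22. The oocyte-type elongation factor copies eef1a1o.S and eef1a1o.L were at 51.9 ± 26.6 and 19.1 ± 11.6 TPM and gtf3a.L, for TFIIIA, at 70.3 ± 16.98. RNA-binding protein genes that male germ cells also use led the list, with ybx2.S at 720 ± 84.8, ybx2.L at 534 ± 135 and dnd1.L at 177 ± 113 TPM. Another gene of this kind, cpeb1, was at 22.1 ± 10.4 TPM for cpeb1.S and 16.7 ± 8.85 TPM for cpeb1.L. Use by cells other than oocytes was not examined for the other genes of the list. Which cells of the testis held these transcripts was not tested.

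Lower levels were seen for patl2.L at 2.71 ± 0.635 TPM, pou5f3.2.S at 1.73 ± 1.13, wee2.L at 1.23 ± 0.620 and wee2.S at 0.569 ± 0.0737 (SD, n = 3), all of them detected. The rows vegt.S, zar1.S, pou5f3.1.L, pou5f3.1.S, pou5f3.2.L, pou5f3.3.L and pou5f3.3.S were not detected. In all, 20 of 37 oocyte rows were detected (54.1%), against 66.7% of all rows and 81.6% of rows that carry a gene name. The median of the 37 rows was 1.496 TPM, against 3.25 TPM over all rows. The summed level of the list was 1647, 1676 and 1709 TPM in replicates 1, 2 and 3, of which both ybx2 rows held 61.7%, 80.2% and 82.1%.

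**Figure D5:**
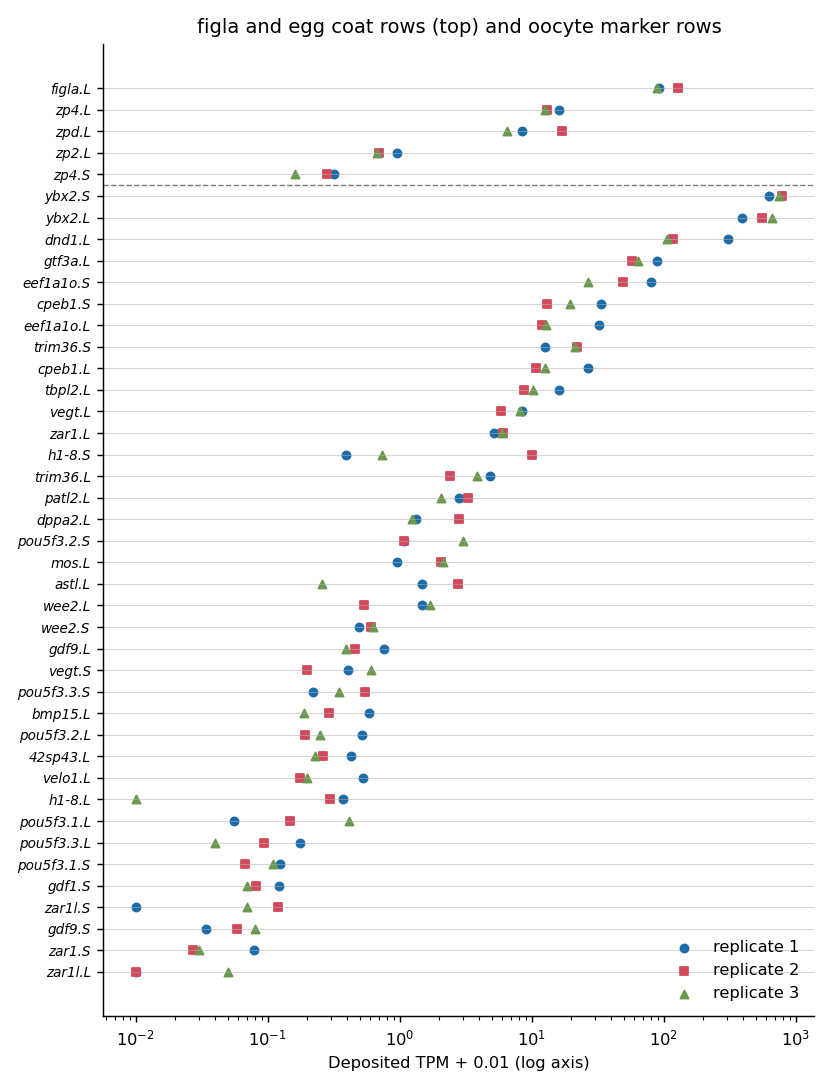
Deposited TPM plus 0.01 (log axis) of the 5 member rows, above the dashed line, and of the 37 oocyte marker rows, with a point for each library. figla.L lies among the highest rows. Of the oocyte rows, gdf9, bmp15, velo1 and 42sp43 lie below 1 TPM, while gtf3a.L, eef1a1o.S and tbpl2.L, among others, lie well above it. The row h1-8.S stands apart in replicate 2.

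Of the other egg coat list, 2 of 9 genes matched a row. The ZP-domain gene zpy1.L was detected at 3.51 ± 0.613 TPM (SD, n = 3), while zpy1.S, with 96, 38 and 77 counts, reached a mean of 0.394 TPM and was detected too. The envelope gene zpax.L, with 24, 16 and 30 counts in replicates 1, 2 and 3, was not detected. The zpy1 copies differed in favour of L, with a log2 ratio of 3.22 (adjusted p = 0.00279, edgeR, SE 0.443).

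Genes of cells that surround an oocyte gave low or mixed levels. Of the follicle cell list, 7 of 13 rows were detected (53.8%, against 81.6% of rows that carry a gene name). They were led by the inhibin subunit copies inhbb.S and inhbb.L at 31.4 ± 7.85 and 27.3 ± 4.84 TPM (SD, n = 3). Next came wnt4.L at 18.1 ± 2.97 and the receptor gene fshr.L at 16.5 ± 4.48 TPM, which the testis is also known to use. The ovarian factor gene foxl2 had 7, 4 and 2 counts for foxl2.L and 6, 33 and 15 for foxl2.S in replicates 1, 2 and 3. The aromatase gene cyp19a1.L had 27, 87 and 24 counts. Neither foxl2 row nor cyp19a1.L was detected. The summed level of the list was 128, 89.1 and 130 TPM, lowest in replicate 2. Most of that sum came from the inhbb, wnt4.L and fshr.L rows. The low rows foxl2.S and cyp19a1.L went the other way, with their most counts in replicate 2, while foxl2.L had its most in replicate 1.

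Genes for partners of FIGLA and for inhibitors of such factors were detected in every matched row. All 12 of 12 rows for helix-loop-helix partners and their inhibitors were detected, against 81.6% of rows that carry a gene name. The median of the list was 16.6 TPM. The partner gene tcf3 had 19.4, 25.0 and 22.5 TPM for tcf3.L and 13.3, 11.5 and 12.3 TPM for tcf3.S in replicates 1, 2 and 3. The level of figla.L exceeded that of tcf3.L by 2.197 ± 0.199 on the log2 scale, or 4.58-fold, and that of tcf3.S by 3.04 ± 0.38, or 8.25-fold, in 3 of 3 libraries (SD, n = 3, exact two-sided permutation of signs, p = 0.25, the smallest possible). The inhibitor genes id3.L, id3.S, id4.S and id2.S led the list at 35.1 ± 7.60, 29.0 ± 1.28, 27.8 ± 6.36 and 26.8 ± 2.44 TPM.

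The ratios between copies of these partners and inhibitors were narrower than that of zp4, as was so for nearly all tested pairs. Counting zp4 itself, 115 of 6627 pairs (1.74%) were at least as wide in either direction. Of all pairs tested, 61.1% were called. The log2 ratio of tcf3 was 0.85 in favour of L (adjusted p = 0.00958, edgeR, SE 0.170). In tcf12 and id2 the S copy led, at -0.96 (adjusted p = 0.00837, edgeR, SE 0.185) and -0.84 (adjusted p = 0.0212, edgeR, SE 0.216). The pairs tcf4, id3 and id4, at -0.24, 0.25 and -0.61, did not pass (adjusted p = 0.266, 0.333 and 0.0607, edgeR). Leaving out replicate 3 ended the calls of tcf12 and id2 (adjusted p = 0.0539 and 0.0927, edgeR), and leaving out replicate 1 ended that of id2 (0.0921).

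Of the germ cell transcription factors around FIGLA, 8 of 10 rows were detected (80%, against 81.6% of rows that carry a gene name). The gonadal factor copies dmrt1.L and dmrt1.S had 238 ± 47.2 and 112 ± 26.4 TPM and mybl1.S and mybl1.L, which mouse spermatocytes need, had 92.1 ± 27.5 and 90.2 ± 12.9 (SD, n = 3). The TBP-like factor gene tbpl1.L was at 90.2 ± 30.0 TPM. The gene lhx8, which mouse oocytes need alongside Figla, had 16.3, 5.28 and 6.74 TPM for lhx8.L and 2.53, 1.55 and 2.86 TPM for lhx8.S in replicates 1, 2 and 3. In CPM, lhx8.L was highest in replicate 1. Of the 8 detected rows of this list, 4 were highest in replicate 2, among them tbpl1.L and both copies of mybl1. Of all detected rows, 35.8% were highest there, so this count of few rows shows no likeness to figla.L. The L copy of lhx8 led with a log2 ratio of 1.90 (adjusted p = 0.00743, edgeR, SE 0.352). For dmrt1 the ratio was 1.104 (adjusted p = 0.00121, edgeR, SE 0.114), and for mybl1 it was 0.0038 (adjusted p = 0.98, edgeR).

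Genes with a ZP domain outside the egg coat were mostly low, with a median of 0.323 TPM. Of 12 rows, 6 were detected (50%, against 81.6% of rows that carry a gene name). The receptor copies tgfbr3.S and tgfbr3.L stood at 5.32 ± 2.12 and 4.87 ± 1.18 TPM, oit3.L at 3.07 ± 0.722 and gp2.S at 2.71 ± 0.822 (SD, n = 3). By mean TPM, both zp4.L and zpd.L thus lay above each row of this list. The highest library of tgfbr3.S, at 7.46 TPM, still exceeded the lowest of zpd.L.

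Of the genes listed for the binding of sperm to the coat, 2 of 13 matched a row. The zona pellucida binding protein gene zpbp2.L had 18.97, 23.1 and 7.43 TPM in replicates 1, 2 and 3 and was detected, while spam1.L, for a hyaluronidase, stayed undetected at 19, 138 and 66 counts. A separate list held proteases gathered as candidates for processing the coat, mostly convertases and astacins chosen by name and not limited to sperm. Of its 15 rows, 12 were detected (80%, against 81.6% of rows that carry a gene name). Whether these genes act on the coat was not tested. The astacin metalloprotease gene astl2b.L stood at 3594 ± 1377 TPM, the testis convertase gene pcsk4.L at 21.9 ± 6.88, pcsk5.L at 11.5 ± 2.55 and furin.L at 7.25 ± 1.53 (SD, n = 3). The gene ovch2.S, whose frog product oviductin acts on the coat in the oviduct, was at 4.53 ± 1.52 TPM.

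The genes beside the members in the NCBI table of Xenopus_laevis_v10.1 were looked up by name. The authors' build is not spelled out, so no coordinates are given. Flanking figla.L, hkdc1.L had 138, 199 and 148 counts and the adducin gene add2.L 48, 86 and 57 in replicates 1, 2 and 3, a mean of 0.933 and 0.460 TPM beside the 103 TPM of figla.L. A long non-coding RNA, LOC108711535, overlaps figla.L in that table and was not analysed here. Since the strand setting of the counting is not given in the sources used here, reads of the overlap cannot be told apart.

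Beside zp4.L lay slc7a2.2.L at 0.772 ± 0.213 TPM and the autophagy receptor gene sqstm1.L at 101 ± 9.26 TPM (SD, n = 3). Beside zpd.L lay LOC108714161 at 91.7 ± 11.8 TPM and adgrg1.L at 4.32 ± 0.825 TPM. The neighbour LOC108714161 was highest in replicate 2, as zpd.L was, with 83.5, 105 and 86.3 TPM in replicates 1, 2 and 3, a narrower range than the 8.45, 17.1 and 6.45 TPM of zpd.L. Beside zp2.L, anks4b.L had 58, 216 and 70 counts and mchr1.2.L had 4, 0 and 1, while zp4.S lay between LOC108712631 at 6.56 ± 1.22 TPM and anxa6.S at 41.1 ± 8.54 TPM.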

How the data were processed

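The authors deposited counts per gene and TPM for 3 libraries, per the file headers, with gene lengths; HISAT2 and featureCounts are named in the submitters' processing notes without versions. Of the lengths, 90.9% (100% for the members) are multiples of 3 and were read as coding lengths. CPM were computed with edgeR 4.0.16 and TMM factors of 1.07, 0.956 and 0.979. A count of 0 was taken to allow up to 3 counts, or 0.0398, 0.0459 and 0.0501 CPM in replicates 1, 2 and 3; intervals and limits cover counting error only. Libraries are numbered in accession order. Between any of the 3 pairs of libraries, 63.6% to 71.5% of detected rows differed by over 3 counting SDs, which does not show that they came from separate animals or RNA samples.

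L and S rows were paired by symbol (7764 pairs). Of these, 6627 with L and S together at 1 CPM or more in each library entered an edgeR quasi-likelihood fit with library as block, an offset of effective library size times length, and a threshold of 0.05. The SE is the log2 ratio divided by the square root of F. The fit was tested on simulated data: with 50 pairs changed at each size among 6627, 8%, 54%, 88% and 100% were called at changes of 1.5, 2, 4 and 8 fold, beside 6 false calls. All other simulated pairs had equal copies, and L and S counts were drawn independently. In the real data 61.1% of pairs were called, so these shares do not give the power or the error of the real fit. DESeq2 1.42.0 served as an alternative.

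Members and gene lists were chosen with earlier results of these data known. Of 166 listed genes, 113 had a matching row, and the other 53 were not analysed here. Named are all member and oocyte rows, up to 4 detected rows of other lists by mean TPM, the 3 list rows nearest in pattern to each detected member, the list rows next in level, and the tested pairs of the members and of the lists of partners and germ cell factors. Further rows (tcf3, lhx8, foxl2, cyp19a1, ovch2, zpax, spam1, zpy1 and ccna1 as pairs and the neighbours) were named after their values were seen. For the cell type lists of spermatids, meiosis, spermatogonia, Sertoli and Leydig cells, counts and sums are given in place of names. No protein or promoter sequences were used here.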

Additional observations from a re-analysis of the deposited data

How the results depend on the processing

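Of 209 values recomputed under the alternatives, 193 were classed as unchanged. For levels and ratios, such values kept their direction and their side of the threshold or stayed within the replicate or counting spread. For counts of rows or pairs, this class included clear changes. Called pairs fell from 61.1% of those tested to 47.8% without replicate 3. All detected rows rose from 23153 to 28720 with no CPM threshold. The row zp4.S was detected at 0.1 CPM or more and with no CPM threshold. Mean TPM without a library ranged from 90.5 to 110.4 for figla.L, 12.9 to 14.6 for zp4.L, 7.45 to 12.8 for zpd.L, 0.671 to 0.812 for zp2.L and 0.212 to 0.290 for zp4.S. The zp4 ratio of L to S kept its call in all 8 alternatives, from 5.64 to 6.03 on the log2 scale without a library and 5.84 with no replicate block (adjusted p = 1.55e-05, edgeR); the pairing is by library, since L and S rows share it. The highest over lowest ratio of figla.L was 1.44 with library totals and 1.45 in deposited TPM, and 1.07 to 1.57 without a library. For zp4.L it was 1.23 with library totals and 1.27 in deposited TPM, and for zpd.L 1.17 to 2.68 without a library. Oocyte rows detected numbered 31 with no CPM threshold, 28 at 0.1 CPM or more and 15 at 1 CPM or more, against 20 in the main setting. The mybl1 ratio, near 0, reversed to -0.12 without replicate 1 (0.11 without replicate 2), -0.039 with no replicate block and -0.00016 with no length offset. The id4 pair passed with DESeq2's Wald test (adjusted p = 0.0383). Depth limits the low rows, such as zp2.L with 81 to 130 counts and zp4.S with 14 to 33.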

Other observations

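The row zp4.2.L, a further gene named after zp4 that the choice by symbol left out, had 23, 33 and 1 counts in replicates 1, 2 and 3, or 0.266, 0.387 and 0.01 TPM, and was not detected. The row gp2.L, for a ZP-domain protein outside the egg coat, had 56, 1 and 0 counts in replicates 1, 2 and 3. Both were named after their values were seen.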
